A study of Mus musculus with 6 samples.

Results

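In colon CD4 T cells, 6 chemokine genes that CD4 T cells can express were followed: Ccl3, Ccl4, Ccl5, Ccl1, Ccl20 and Xcl1. They were chosen by name, and all 6 were found among the 55335 genes of the count table. 5 of them passed the expression filter and were tested with 11074 genes in all, and Ccl20 did not. The libraries were GFP-positive (TCF7+, 3 libraries, which the labels call stem-like T cells) and GFP-negative (TCF7-, 3 libraries, which the labels call effector T cells). Both gates came from naive splenic CD4 T cells of TcfGFP mice that had been transferred into Rag1 KO mice, and cells were sorted from the colon lamina propria after colitis had developed. TcfGFP is read here as a GFP reporter of the gene Tcf7, which encodes the transcription factor TCF1. Rag1 KO hosts have no T or B cells of their own but keep myeloid, natural killer and innate lymphoid cells. The labels give no age, sex or number of mice, and do not say that replicates came from separate animals, so every p-value speaks of the spread between these libraries alone.

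Chemokines are small secreted proteins that guide leukocytes through G protein-coupled receptors. CCL3, CCL4 and CCL5 are products of activated and cytotoxic lymphocytes and of myeloid cells, and they draw monocytes and T cells to inflamed tissue. CCL1 is the ligand of CCR8, CCL20 is the ligand of CCR6 and is made by Th17 cells and gut epithelium, and XCL1 draws cross-presenting dendritic cells through XCR1.

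Parts of the coding sequences of 5 of the genes are shown because their cysteine codons tell the family to which each belongs. In the 36 bases below (GENCODE M21, gene strand, 5′ to 3′), capitals mark cysteine codons, and the window starts 5 codons before the first cysteine codon past codon 25.
Ccl4: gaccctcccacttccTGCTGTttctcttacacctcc
Ccl5: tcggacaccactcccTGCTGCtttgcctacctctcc
Ccl1: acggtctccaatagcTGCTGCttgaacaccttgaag
Ccl20: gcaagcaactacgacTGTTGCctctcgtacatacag
Xcl1: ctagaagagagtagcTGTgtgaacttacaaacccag
The 4 Ccl genes shown carry adjacent cysteine codons, the mark of CC chemokines, and Xcl1 has a lone cysteine codon there. The windows lie in coding exon 2 of 3, except that of Ccl20, which runs over the junction of exons 1 and 2. On mm10 (GRCm38, 1-based) they are at chr11:83663467-83663502 on the plus strand for Ccl4 and chr11:83529227-83529262 on the minus strand for Ccl5. Those of Ccl1 and Xcl1 are at chr11:82178093-82178128 and chr1:164932957-164932992, both on the minus strand, and that of Ccl20 spans chr1:83116902-83117833 on the plus strand. No stretch of 50 bases in the transcripts of the 6 genes was shared with a transcript of any other gene. An exon of Xcl1 overlaps an exon of Gm20743 on the other strand, and the library method keeps no strand, so counts of Xcl1 may include reads of Gm20743.

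Library totals were between 4309500 and 7462076 counts. All 9 markers of CD4 T cells were present in every library and held 0.58% to 0.825% of counts in GFP-positive libraries and 0.737% to 0.788% in GFP-negative ones. Tcf7 had 237.4, 183 and 140.8 CPM (counts scaled to the library total) in GFP-positive replicates 1 to 3 and 121.1, 140.5 and 71.3 CPM in GFP-negative ones, without overlap by a narrow margin (edgeR adjusted p = 0.367). GFP-positive replicate 3 stood apart. All 14 markers of myeloid cells were highest there, and they held 0.734% of its counts, against 0.0151% to 0.0169% in GFP-positive replicates 1 and 2 and 0.0145% to 0.0208% in GFP-negative libraries. Markers of epithelial and of stromal cells were also higher in that library, at 0.0423% and 0.04% of its counts. Of 11074 genes, 12 (0.108%) had an adjusted p below 0.05 in edgeR's quasi-likelihood test, 4 (0.0361%) higher and 8 (0.0722%) lower in GFP-positive cells. Leaving out GFP-positive replicate 1, 2 or 3 gave 0, 0 or 42 genes, and leaving out GFP-negative replicate 1, 2 or 3 gave 1, 3 or 0. Where edgeR gave 0, it counted 1105, 1018 and 846 genes at an unadjusted p below 0.05.

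Colon CD4 T cells of both gates carried abundant Ccl5 and Ccl4 mRNA, and much less of the other 4. On the deposited TPM scale (transcripts scaled for gene length and library total), Ccl5 averaged 3837 ± 380.1 TPM in GFP-positive and 4521 ± 1884 TPM in GFP-negative libraries (SD, n = 3 each). It ranked between 23 and 30 of all genes in GFP-positive libraries and between 14 and 41 in GFP-negative ones. Ccl4 followed with 1104 ± 155 TPM in GFP-positive and 1972 ± 900 TPM in GFP-negative libraries. Xcl1 had 119.6 ± 47.0 TPM in GFP-positive and 158 ± 77.8 TPM in GFP-negative libraries, and Ccl3 had 102.1 ± 89.4 TPM in the GFP-positive and 109.3 ± 31.6 TPM in the GFP-negative ones. Ccl1, a scarcer transcript, averaged 17.2 ± 9.65 TPM in GFP-positive and 27.2 ± 16.1 TPM in GFP-negative cells. Ccl20 averaged 1.79 ± 1.37 TPM in GFP-positive and 8.69 ± 12.1 TPM in GFP-negative cells. The order Ccl5, Ccl4, then Xcl1 and Ccl3, then Ccl1 was the same in all 6 libraries, and Ccl20 was the lowest in each. Xcl1 and Ccl3 changed places in replicate 3 of both gates, so their levels did not differ beyond their spread. Together Ccl5 and Ccl4 made up 94.0% to 96.4% of the summed TPM of the 6 genes in GFP-positive and 94.4% to 96.3% in GFP-negative libraries.

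Chemokine mRNA was compared between the GFP-positive and the GFP-negative gate, both of which held Tcf7 mRNA. None of the 5 tested genes passed the threshold, in edgeR (0 of 5), DESeq2 (0 of 5) or limma-voom (0 of 5). At an unadjusted p below 0.05 edgeR counted 1 of 5, namely Ccl4, which was lower in GFP-positive cells. DESeq2 counted the same gene and limma-voom counted 0. Of all tested genes, 10.3% had such a p in edgeR (4.31% higher and 5.97% lower in GFP-positive cells), 10.9% in DESeq2 and 10.1% in limma-voom. The adjusted p was below 0.05 for 1.82% of genes in DESeq2 and for 0.163% in limma-voom. 4 of the 5 had a negative log2 fold change (GFP-positive minus GFP-negative), with a median of -0.36, against 5362 of 11074 and a median of 0.02 over all tested genes. For all 6 genes the CPM values of the gates overlapped, while they did not overlap for 16.0% of tested genes (7.25% higher and 8.80% lower in GFP-positive cells). In a sorted population, fewer cells making a transcript and less transcript per cell cannot be told apart.

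**Figure D1:**
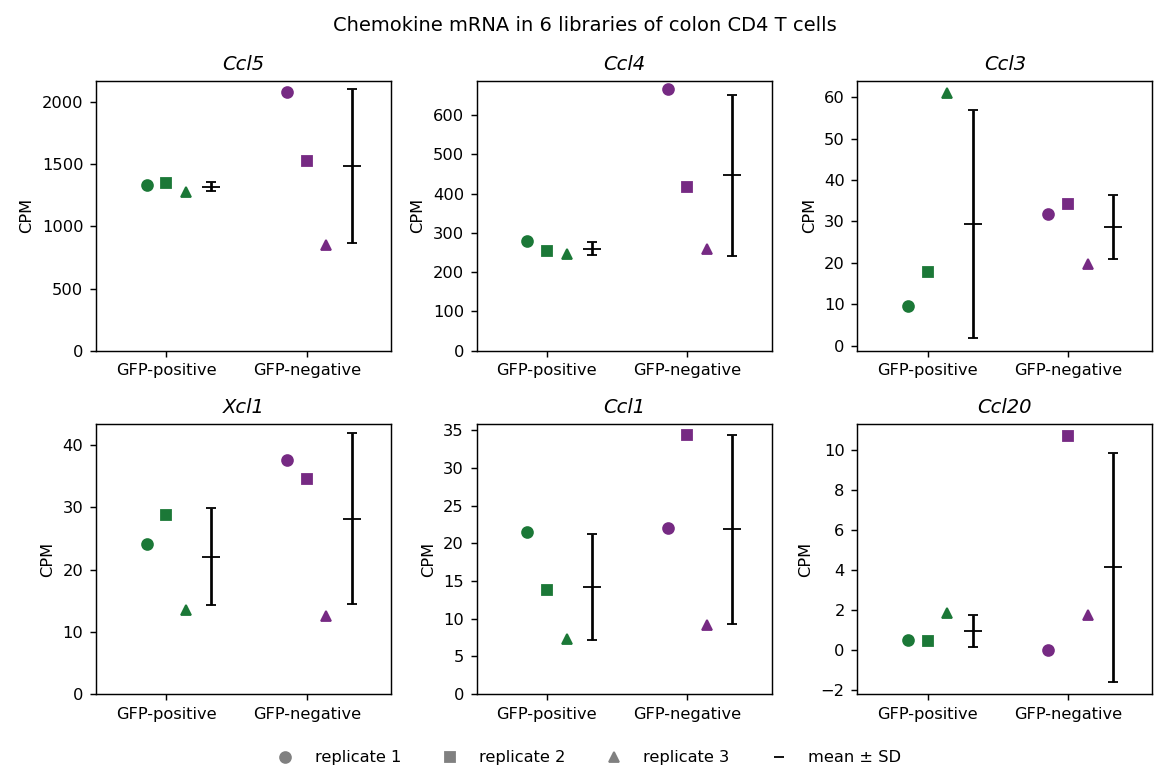
CPM of the 6 chemokine genes in each library (points, by replicate) with the mean and SD of each gate (n = 3), GFP-positive on the left and GFP-negative on the right. GFP-positive values of Ccl5 and Ccl4 lie close together (1278 to 1346 and 247.3 to 279.3 CPM), GFP-negative values are spread, and Ccl3 is highest in GFP-positive replicate 3.

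Ccl4 encodes MIP-1β, an attractant of T cells and monocytes, and lies on chromosome 11 (83662584 to 83664683, plus strand). It stood at 279.3, 253.6 and 247.3 CPM in GFP-positive replicates 1 to 3, against 665.2, 415.9 and 257.7 CPM in GFP-negative replicates 1 to 3. GFP-positive libraries were level with each other, and the lowest GFP-negative library lay inside their range. The log2 fold change was -0.78 ± 0.31 (SE), with an edgeR adjusted p of 0.449 over all genes. The adjusted p was 0.079 in DESeq2, 0.545 in limma-voom and between 0.167 and 0.754 when any library was left out. The log2 fold change was -0.38 without GFP-negative replicate 1, the library with the most Ccl4. With no expression filter, edgeR's adjusted p was 0.00091, and over all other settings it stayed between 0.079 and 0.763. Cd8a, a marker of CD8 T cells, which also make CCL4, stood at 46.1, 25.3 and 10.3 CPM in GFP-positive, against 113.4, 55.3 and 31.4 CPM in GFP-negative replicates 1 to 3. Its values overlapped between the gates (edgeR adjusted p = 0.634). Cd8b1, the other CD8 marker, had 5.71, 1.84 and 3.73 CPM in GFP-positive and 10.1, 3.87 and 1.32 CPM in GFP-negative replicates 1 to 3, with overlap. Together the 2 CD8 markers held 0.00131% to 0.00536% of counts in GFP-positive libraries and 0.00326% to 0.0123% in GFP-negative ones, neither at 0 in any library. The 6 natural killer and innate lymphoid markers held 0.00355%, 0.002% and 0.0765% of counts in GFP-positive replicates 1 to 3. In GFP-negative libraries they held 0.00466% to 0.00866%. GFP-positive replicate 3 was also the library with high myeloid markers. In it Tyrobp had 486.9 and Fcer1g 301.9 CPM, while Ncr1, Klrb1b, Klrb1c and Klra8 ran from 2.01 to 11.8 CPM. Of the 6, 1 was at 0 in GFP-positive replicate 1, 2 in GFP-positive replicate 2 (Ncr1 among them) and 1 each in GFP-negative replicates 1 and 3. The cells were sorted as CD4 T cells and descend from transferred naive CD4 T cells, and the part of other lymphocytes in the values of Ccl4 was not tested.

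Ccl5 encodes RANTES, a ligand of CCR1 and CCR3 that memory and effector T cells store in quantity. The gene is on chromosome 11 (83525778 to 83530518, minus strand). It had 1330, 1346 and 1278 CPM in GFP-positive replicates 1 to 3 and 2084, 1528 and 847.8 CPM in GFP-negative ones. The GFP-positive values lay within the GFP-negative range, which ran 2.46-fold from the lowest library to the highest. The log2 fold change was -0.17 ± 0.27 (SE; edgeR adjusted p = 0.881), and it was 0.15 without GFP-negative replicate 1, the library with the highest Ccl5.

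Ccl3 encodes MIP-1α, the close relative of MIP-1β that binds CCR1, and lies beside Ccl4 (chromosome 11, 83647844 to 83649355, minus strand). It stood at 9.53, 17.7 and 61.0 CPM in GFP-positive replicates 1 to 3, against 31.8, 34.3 and 19.7 CPM in GFP-negative ones. GFP-positive cells thus held both the lowest and the highest value, and the highest was in the library with myeloid transcripts. The log2 fold change was 0.05 ± 0.67 (SE; edgeR adjusted p = 0.99). Without GFP-positive replicate 3 it was -1.07 (edgeR unadjusted p = 0.0184, adjusted p = 0.28), where 7.56% of genes were lower at an unadjusted p below 0.05, and the remaining GFP-positive libraries lay below all GFP-negative ones, as did 15.6% of the genes tested without it. It was -0.16 without GFP-negative replicate 3, and -0.01 with library size as the only scaling. Macrophages and neutrophils make CCL3, and Lyz2, their lysozyme gene, stood at 90.8, 65.8 and 4217 CPM in GFP-positive, against 92.5, 72.3 and 100.4 CPM in GFP-negative replicates 1 to 3. In GFP-positive replicates 1 and 2, 4 of the 14 myeloid markers were at 0 in each, Adgre1 and Itgam among them. What share of the Ccl3 counts came from myeloid cells was not tested.

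**Figure D2:**
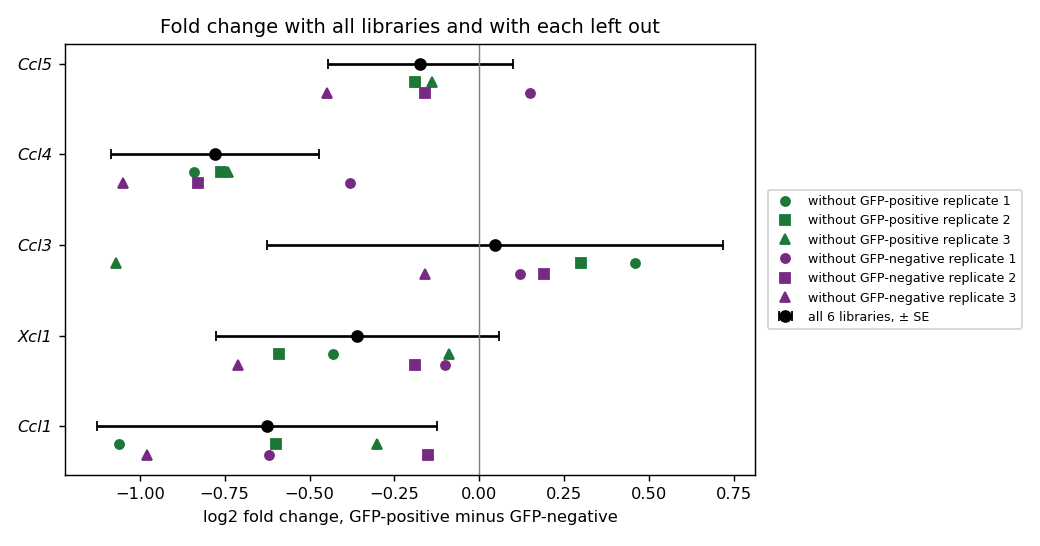
Log2 fold change of the 5 tested chemokine genes (x axis) with all 6 libraries (black, bars are the SE of edgeR) and with each library left out in turn (coloured points). Ccl4 and Ccl1 stay below 0 throughout, Ccl3 runs from -1.07 to 0.46 and Ccl5 reaches 0.15 without GFP-negative replicate 1.

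The amount of Ccl4 for each unit of Ccl5 was lower in every GFP-positive library than in any GFP-negative one. Within a library, such a ratio does not depend on scaling between libraries. The TPM of Ccl4 divided by that of Ccl5 was 0.306, 0.274 and 0.282 in GFP-positive replicates 1 to 3 and 0.464, 0.396 and 0.442 in GFP-negative ones. The gates did not overlap, and the ratio was 0.662 times as high in GFP-positive cells, a difference of -0.59 on the log2 scale, with SDs of 0.0821 over the GFP-positive and 0.118 over the GFP-negative libraries (n = 3 each). The two-sided exact permutation test gave p = 0.1, the smallest that 3 against 3 libraries allow, and an adjusted p of 1 over the 10 pairs of genes compared. This was the only pair of the 10 whose ratios did not overlap. Of 10180 other tested genes with more than 3 counts in every library, 1.46% had a ratio to Ccl5 that was lower in GFP-positive cells without overlap, and 5.06% did not overlap in either direction. The ratios were set up after the levels had been seen.

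Ccl3 set against Ccl4 gave 0.0294, 0.0601 and 0.212 in GFP-positive replicates 1 to 3 and 0.0412, 0.0712 and 0.066 in GFP-negative ones. GFP-positive replicate 3 was the highest of the 6 libraries and the other 2 GFP-positive libraries were within or below the GFP-negative range. Ccl3 was more abundant per length than Xcl1 in that library (ratio 3.09), and it was less abundant than Xcl1 in GFP-positive replicates 1 and 2 (0.27 and 0.421).

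**Figure D3:**
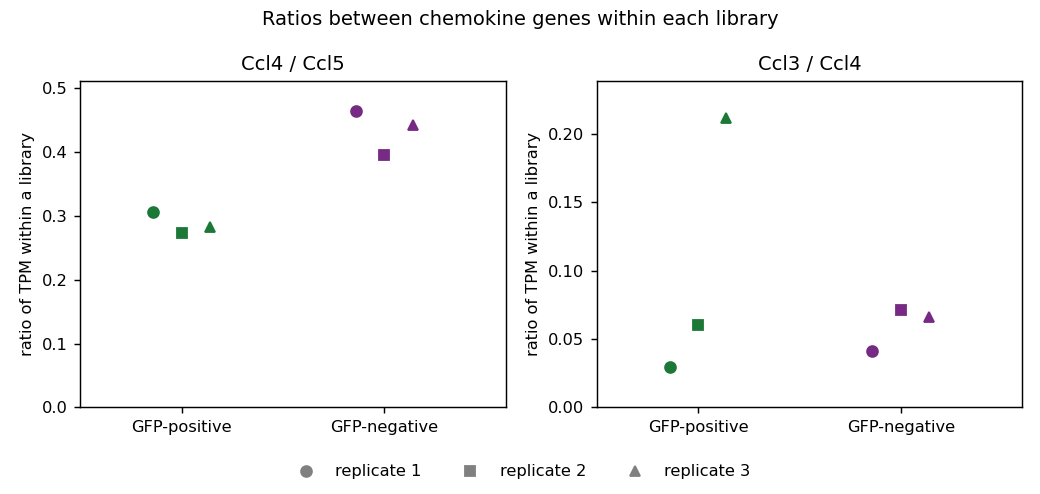
Ratio of Ccl4 to Ccl5 (left) and of Ccl3 to Ccl4 (right) in each library, from the deposited TPM, with GFP-positive libraries on the left of each panel. The Ccl4 to Ccl5 ratio is 0.274 to 0.306 in GFP-positive and 0.396 to 0.464 in GFP-negative libraries, and GFP-positive replicate 3 has the highest Ccl3 to Ccl4 ratio, 0.212.

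Xcl1 encodes lymphotactin, the ligand of XCR1 (chromosome 1, 164931644 to 164935527, minus strand). It stood at 24.1, 28.7 and 13.5 CPM in GFP-positive replicates 1 to 3, against 37.6, 34.6 and 12.5 CPM in GFP-negative ones. The lowest value of each gate was in replicate 3. The log2 fold change was -0.36 ± 0.42 (SE; edgeR adjusted p = 0.831), and it was negative with any library left out, between -0.71 and -0.09.

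Ccl1, the CCR8 ligand that activated T cells secrete, is annotated over chromosome 11, 82176657 to 82305690, on the minus strand. It had 21.5, 13.8 and 7.32 CPM in GFP-positive replicates 1 to 3 and 22.1, 34.3 and 9.21 CPM in GFP-negative ones. Here too replicate 3 of each gate was lowest. The log2 fold change was -0.63 ± 0.50 (SE; edgeR adjusted p = 0.737), with a range from -1.06 to -0.15 when any library was left out. The 9 CD4 T cell markers held 0.825%, 0.759% and 0.58% of counts in GFP-positive replicates 1 to 3. In GFP-negative replicates 1 to 3 they held 0.788%, 0.74% and 0.737%. Whether this bears on the low values of Ccl1 and Xcl1 in replicate 3 was not tested.

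Ccl1 and Xcl1 had the most similar course over the libraries after Ccl4 and Ccl5 and after Ccl5 and Xcl1. Likeness was the root mean square difference of log2(CPM + 1), each gene centred on its own mean over the 6 libraries. It was 0.308 between Ccl4 and Ccl5, 0.343 between Ccl5 and Xcl1 and 0.358 between Ccl1 and Xcl1. Of 8287 genes with at least 10 CPM on average, 4 were nearer to Ccl1 than Xcl1 was. By the same count, 60 were nearer to Ccl4 than Ccl5 was, and 1023 were nearer to Ccl5 than Xcl1 was. The reverse counts were not made, so the nearness of Ccl1 and Xcl1 is shown from the side of Ccl1 alone. Samd3 (0.149), Papolg (0.223) and Unkl (0.231) were all nearer to Xcl1 than Ccl1 was. Ccl3 was the farthest from the others, at 0.808 to 1.21. These distances describe the same 6 libraries and share their depth and scaling.

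RefSeq promoters were matched for 4 of the 6 genes, Ccl1, Ccl3, Ccl20 and Xcl1. Those of Ccl1 and Xcl1 are printed because, of these, they were the pair nearest in course (Ccl20 was not compared). Each line gives the 250 bases before the start of the gene in RefSeq (GRCm38.p6), 5′ to 3′ on the gene's strand, at chr11:82179813-82180062 for Ccl1 and chr1:164935523-164935772 for Xcl1, both minus. Capitals mark the matches found.
Ccl1: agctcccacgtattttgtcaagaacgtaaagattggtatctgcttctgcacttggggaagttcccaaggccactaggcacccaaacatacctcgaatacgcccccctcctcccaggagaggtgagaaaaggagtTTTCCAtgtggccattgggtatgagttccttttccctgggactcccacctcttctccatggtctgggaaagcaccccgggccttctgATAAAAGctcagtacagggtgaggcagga
Xcl1: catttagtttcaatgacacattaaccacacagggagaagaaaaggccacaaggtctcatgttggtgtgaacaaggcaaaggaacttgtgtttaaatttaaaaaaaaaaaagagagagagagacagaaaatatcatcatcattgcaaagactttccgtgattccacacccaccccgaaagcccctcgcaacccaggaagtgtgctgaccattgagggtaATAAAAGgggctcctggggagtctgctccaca
Both held ATAAAAG on the gene's strand, from base -29 to -23 in Ccl1 and from -32 to -26 in Xcl1, counted back from the start. This TATA-like motif was searched after the sequences had been seen, and 3.01% of 32851 promoters held it. The windows of Ccl3 and Ccl20 lacked ATAAAAG but hold TATAAGA, which was not searched. A string close to TATAAA is therefore not particular to Ccl1 and Xcl1. TGGAAA, a form of the core of an NFAT site, was found in Ccl1 on the strand opposite to the gene. It lies from base -116 to -111, where the line above reads TTTCCA. This string was in 18.6% of promoters on either strand. Other forms of the NFAT core were not searched, so the windows of Xcl1, Ccl3 and Ccl20 cannot be said to lack an NFAT site. The TCF/LEF core CTTTGNT (16.0% of promoters) and the AP-1 motif TGANTCA (6.75%), searched on both strands, had no match in these windows. The windows are those of Ccl1, Xcl1, Ccl3 and Ccl20. TATAAA (7.59%), searched on the gene's strand, had no match in them either. For NF-kB a narrow string (0.356%) was searched on both strands, also without a match. Other forms of the NF-kB motif were not searched, so these windows cannot be said to lack an NF-kB site. The motifs do not overlap each other in these windows.

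Ccl20, the CCR6 ligand (chromosome 1, 83116766 to 83119167, plus strand), was close to the limit of detection. It had 3, 2 and 13 counts in GFP-positive replicates 1 to 3 and 0, 47 and 8 counts in GFP-negative ones. In CPM these were 0.52, 0.46 and 1.86 in GFP-positive libraries and 0, 10.7 and 1.75 in GFP-negative ones. A count of 0 allows up to 0.58 CPM in GFP-negative replicate 1. GFP-negative replicate 2 alone stood clear of the others, and the difference in mean CPM (GFP-positive minus GFP-negative) was -3.20 with it and 0.07 without it, and it was -5.27 without GFP-negative replicate 1. The 8 epithelial markers held 0.00368%, 0.00438% and 0.0423% of counts in GFP-positive replicates 1 to 3. In GFP-negative replicates 1 to 3 they held 0.0103%, 0.00441% and 0.00726%. GFP-negative replicate 2, the library with the most Ccl20, thus had the lowest share of its gate. Of the 8, 3 were at 0 in GFP-positive replicate 1, 4 in GFP-positive replicate 2 and 2 in GFP-negative replicate 2. Epcam was at 0 in GFP-positive replicates 1 and 2, while Cdh1, Krt18, Krt8 and Lgals4 had counts in every library. The part of epithelial cells in the Ccl20 counts was not tested.

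By the rule for genes of similar course, the 3 nearest to each of the 5 genes were taken over the 6 libraries, out of 8014 left of those 8287 after gene-model names (Gm, Rik) were set aside. Nearest to Ccl4 were Itgav (root mean square difference 0.188), Ramp1 (0.193) and Fbxo31 (0.209). Ramp1, a co-receptor subunit of the neuropeptide CGRP, stood at 48.0, 50.1 and 54.6 CPM in GFP-positive, against 101.2, 64.8 and 48.9 CPM in GFP-negative replicates 1 to 3. The genes of this paragraph were picked for such likeness, so a course shared with their chemokine follows from the choice. Nearest to Ccl5 were Mrpl1 (0.101), Med7 (0.112) and H2-Q4 (0.119). Nearest to Ccl3 were Sdc4 (0.202), Nfil3 (0.286) and Ralgds (0.3), and Sdc4, a heparan sulphate proteoglycan, was likewise highest in GFP-positive replicate 3, at 88.8 CPM. Samd3 was nearest to Xcl1 (0.149) and second to Ccl1 (0.322), with Papolg (0.223) and Unkl (0.231) next for Xcl1, and Zfp831 (0.245) and Crtam (0.344) the others for Ccl1.

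Receptors of these chemokines were also measured, and those given here overlapped between the gates. Ccr6, the receptor of CCL20, stood at 75.0, 81.8 and 72.7 CPM in GFP-positive, against 13.8, 75.5 and 16.0 CPM in GFP-negative replicates 1 to 3, and the high GFP-negative library was the one with the most Ccl20 (edgeR adjusted p = 0.692). Ccr8, the receptor of CCL1, had 75.5, 116.1 and 76.6 CPM in GFP-positive and 92.5, 76.0 and 62.5 CPM in GFP-negative libraries (edgeR adjusted p = 0.8). Ccr1, a receptor of CCL3 and CCL5, was at 7.97, 4.37 and 84.6 CPM in GFP-positive and 22.5, 13.0 and 16.7 CPM in GFP-negative libraries, highest in the library with myeloid transcripts (edgeR adjusted p = 0.87). Xcr1, the receptor of XCL1, ran from 5.75 to 12.3 CPM in GFP-positive and from 8.55 to 19.8 CPM in GFP-negative libraries (edgeR adjusted p = 0.767). Ccr3 was found in GFP-positive replicate 3, at 5.88 CPM, and in GFP-negative replicate 1, at 0.97 CPM, and was not tested.

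The 32 other chemokine genes were mostly scarce in CD4 T cells, and 8 of them were tested. They summed to 60.1, 83.5 and 1196 CPM in GFP-positive replicates 1 to 3 and to 72.5, 94.6 and 115.3 CPM in GFP-negative ones. Of the 28 with any count, 22 were highest in GFP-positive replicate 3. EdgeR called 0 of 8 (0 at an unadjusted p below 0.05), with a median log2 fold change of 3.22, and DESeq2 and limma-voom also called 0 of 8 (2 and 1 at such a p). Without GFP-positive replicate 3 edgeR called 0 of 7 (2 at an unadjusted p below 0.05), with a median of -0.46, where 0.370% of all genes were called, 12.2% had such a p and the median was 0.01. Ccl6, a macrophage chemokine that neighbours Ccl3 in the mouse cluster, stood at 4.16, 4.14 and 246.4 CPM in GFP-positive, against 5.82, 7.05 and 4.39 CPM in GFP-negative replicates 1 to 3. Ccl9, of the same cluster, had 2.08, 2.07 and 37.6 CPM in GFP-positive and 0, 0 and 3.07 CPM in GFP-negative libraries. Cxcl10, the interferon-induced ligand of CXCR3, had 31.0, 34.0 and 121.8 CPM in GFP-positive and 19.8, 32.1 and 38.2 CPM in GFP-negative libraries. Cxcl3, a neutrophil chemokine, had 2.77, 13.3 and 15.3 CPM in GFP-positive and 13.2, 23.6 and 26.5 CPM in GFP-negative ones, and it was the only gene of the 8 with a negative log2 fold change.

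**Figure D4:**
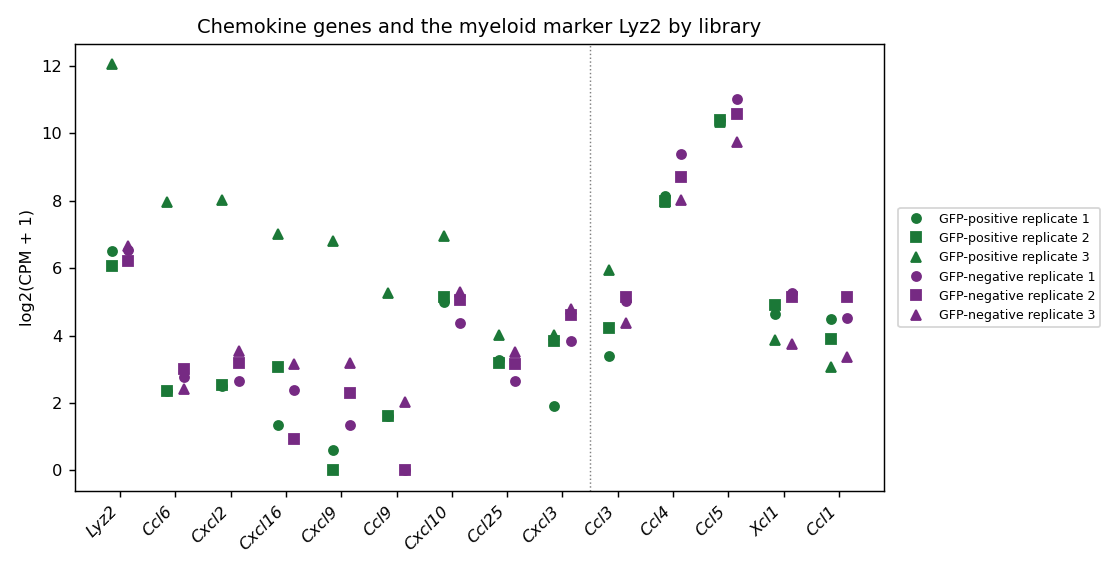
Log2(CPM + 1) of the myeloid marker Lyz2, of the 8 tested other chemokine genes (left of the dotted line) and of the 5 tested chemokine genes of T cells (right), with GFP-positive libraries in green and GFP-negative ones in purple. GFP-positive replicate 3 (green triangles) is far above the other libraries for Lyz2, Ccl6, Cxcl2, Cxcl16, Cxcl9 and Ccl9, is highest for Ccl3, and is not highest for Ccl4, Ccl5, Xcl1 or Ccl1.

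Of 24 transcription factors with a known link to these chemokine genes all were tested, 10 with a positive and 14 with a negative log2 fold change (median -0.04), and edgeR called 0 of 24 (4 at an unadjusted p below 0.05). Limma-voom called 0 of 24 (5 at such a p) and DESeq2 called 1 of 24, Prdm1 (adjusted p = 0.042), where it called 1.82% of all genes. Tbx21, which encodes T-bet, an activator of Th1 genes including Ccl3, Ccl4 and Ccl5, stood at 129.9, 108.7 and 96.8 CPM in GFP-positive, against 183.4, 160.3 and 138.8 CPM in GFP-negative replicates 1 to 3. Prdm1, which encodes Blimp-1, had 82.4, 121.6 and 104.8 CPM in GFP-positive and 157, 160.1 and 168.6 CPM in GFP-negative libraries. Irf4, a factor of antigen-activated T cells, had 38.3, 56.3 and 58.7 CPM in GFP-positive and 83.7, 65.0 and 88.6 CPM in GFP-negative libraries. These 3 of the 24 were lower in all GFP-positive libraries without overlap, as were 8.80% of tested genes, and the edgeR adjusted p was 0.268 for Tbx21, 0.158 for Prdm1 and 0.334 for Irf4. Irf1, an interferon-induced factor named here after its values were seen, was the only one of the 24 that was higher without overlap (7.25% of tested genes). It had 388.5, 386 and 499.1 CPM in GFP-positive and 382, 364.5 and 300.4 CPM in GFP-negative libraries (edgeR adjusted p = 0.599). Fos, a subunit of AP-1, had 591.9, 476.4 and 862 CPM in GFP-positive and 506.5, 282.6 and 216.4 CPM in GFP-negative libraries, with overlap (edgeR adjusted p = 0.46).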

How the data were processed

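Bulk RNA-seq was measured in 6 libraries of sorted mouse colon CD4 T cells, grouped by the sample titles. Complementary DNA was primed with oligo-dT and random primers, amplified and tagmented, per the labels' protocols. No strand or molecular identifier is kept, so floors from counts cover counting error only. The authors deposited whole-number counts of reads for each gene, and TPM for most of the same genes. The submitters' processing notes name STAR 2.7.10b, fastp 0.23.3, deepTools 3.5.1, SAMtools 1.17 and mm10. Which counter and annotation were used is not stated there.

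The test was edgeR 4.0.16 (R 4.3.3): robust quasi-likelihood F-test, TMM factors, the default filter by gate (minimum count 10), Benjamini-Hochberg adjustment over 11074 genes, threshold 0.05. CPM are relative to TMM-scaled totals of tested genes. An SE is the log2 fold change divided by the square root of F. Fits were tested on simulated data. Alternatives were a filter of 1 CPM in 3 libraries, fitting every gene, RLE factors, library size alone, DESeq2 1.42.0, limma-voom (limma 3.58.1), limma on log2(TPM + 1) and log2(TPM + 0.1), a replicate block, a threshold of 0.01 and each library left out. Genes were named by rule: the 6 chemokines and their receptors, the 4 with the smallest p in each list, and the 3 nearest to each chemokine in course. Some items the rule takes are not reported here. The chemokines and the lists were chosen with earlier results of these data known. No pair of replicates was a duplicate (smallest chi-square per degree of freedom 11.2).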

Additional observations from a re-analysis of the deposited data

How the results depend on the processing

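Ccl1, Ccl4 and Xcl1 had negative log2 fold changes under all 16 alternatives run for each. Ccl4 passed the threshold only with no filter (-0.78, edgeR adjusted p = 0.00091); the cause was not tested. Ccl3, at 0.05 with all libraries, turned to -0.01 with library size alone, -0.24 in limma-voom, -0.37 with the replicate block, -0.41 on log2(TPM + 1) with and without the filter and -0.42 on log2(TPM + 0.1), and it ran from -1.07 to 0.46 with a library left out. Ccl5 ran from -0.45 to 0.15 with a library left out, the last without GFP-negative replicate 1. The difference of Ccl20 ran from -5.27 to 0.07 CPM. Ccl20 had enough counts to be fitted only with no filter, with 1 CPM in 3 libraries and on TPM, where its adjusted p was between 0.601 and 0.981.

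The count of genes past the threshold, 12, was 19 with library size alone, 373 with no filter, 200 in DESeq2, 81 with the replicate block, 1 on log2(TPM + 1) with and without the filter, 0 on log2(TPM + 0.1) (1156 at an unadjusted p below 0.05, limma), 0 at a threshold of 0.01 and from 0 to 42 with a library left out. The labels do not say that same-numbered libraries of the gates share mice, so the main test did not pair them. Their deviations correlated at 0.104, 0.097 and 0.104 across genes, and each library correlated best with its own number. The highest correlation between libraries of different numbers was 0.02, so the libraries may be paired. Under the replicate block Ccl4 had -0.68 (edgeR unadjusted p = 0.0113, adjusted p = 0.243). Ccl20 had 3 counts or fewer in 3 of the 6 libraries, which limits its comparison.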

Other observations

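Chemokine receptors other than those of the 6 chemokines were tested in 12 of 17 cases, 7 with a positive and 5 with a negative log2 fold change (median 0.47), and edgeR called 0 of 12 (2 at an unadjusted p below 0.05). Limma-voom called 0 of 12 (2 at such a p) and DESeq2 called 1 of 12, Cxcr3 (adjusted p = 0.014), where it called 1.82% of all genes. Ccrl2, a decoy-like receptor of activated myeloid cells, stood at 18.4, 29.0 and 604 CPM in GFP-positive replicates 1 to 3, against 31.6, 17.5 and 29.2 CPM in GFP-negative ones, and the high library was the one with myeloid transcripts. Ccr7, which guides cells to lymph nodes, had 24.2, 37.5 and 57.8 CPM in GFP-positive and 18.0, 24.8 and 16.4 CPM in GFP-negative libraries (edgeR adjusted p = 0.29). Cxcr3, the receptor of CXCL9 and CXCL10, had 371.8, 367.8 and 334.3 CPM in GFP-positive and 235.9, 264.2 and 243.2 CPM in GFP-negative libraries, higher without overlap like 7.25% of tested genes (edgeR adjusted p = 0.158). Cxcr4 ran from 12.2 to 22.2 CPM in GFP-positive and from 8.64 to 13.6 CPM in GFP-negative libraries.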
